A study of Mus musculus with 24 samples.

Results

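The genes described here are the 41 genes of the count table whose name starts with Nduf and that had 10 or more read counts in at least 6 of 24 libraries, out of 23337 genes in the table. They encode subunits and assembly factors of respiratory complex I. By role they comprise 35 subunits, 4 assembly factors (Ndufaf1 to Ndufaf4) and 2 genes that share the name but not the complex: Ndufa4, whose product is now known as a subunit of complex IV, and Ndufa4l2, a related gene known for its induction in hypoxia. Of the 35 subunits, 7 belong to the catalytic core, 9 to the accessory subunits of the matrix arm, 8 to those of the proximal and 10 to those of the distal membrane arm, and 1, Ndufab1, is the mitochondrial acyl carrier protein. In all 24 libraries 40 of the 41 genes had at least 10 counts. Of the 41, Ndufa4l2 came nearest to the count limit, with 10 or more counts in 21 libraries and 629 counts in all. Outside the limit lay the subunit gene Ndufs5, listed at 0 counts in all 24 libraries. Of the 50-base words of Ndufs5 transcripts, 21.7% also occur in a transcript of BC002163, and their part in the 0 was not tested.

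All libraries were made from cardiomyocytes of 4-week-old mice that carried the Cas9 nuclease at the Rosa locus and had been injected with an adeno-associated virus (AAV) on postnatal day 1. Hearts were digested by an enzyme solution run backwards through the coronary vessels (Langendorff perfusion), and the cardiomyocytes were purified by fluorescence-activated sorting. The TKO mice had the genotype written Mrfta-/-; Mrtfb-F/F; Rosa-Cas9/Cas9 and received AAV-Myocd-sgRNA, a virus with guide RNA against myocardin (Myocd). The DKO mice had that genotype and received AAV-Cre, the MKO mice were Rosa-Cas9/Cas9 with AAV-Myocd-sgRNA, and the Ctrl mice were Rosa-Cas9/Cas9 with AAV-Cre. Each group held 6 libraries. The labels give no promoter for the virus genes and name no Cre for the guide virus that the TKO mice received, and do not tie the 6 libraries of a group to separate mice. The p-values therefore rest on the spread among libraries, which may be partly technical. Mrtfa, Mrtfb and myocardin, the 3 members of 1 family, are coactivators of serum response factor. The groups target myocardin alone, Mrtfa and Mrtfb together, or all 3, and none targets Mrtfa or Mrtfb alone. The guide virus took the place of AAV-Cre in MKO and TKO, so myocardin targeting cannot be told apart from the change of virus.

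Complex I takes electrons from NADH, passes them through a flavin and a chain of iron-sulfur clusters to ubiquinone, and pumps protons across the inner mitochondrial membrane. Its matrix arm holds the flavin, the clusters and the quinone site, and its membrane arm holds the proton channels, most of whose core subunits are encoded in mitochondrial DNA and were not analysed here. Accessory subunits surround the core, and assembly factors build the enzyme in modules without staying in it. Heart muscle depends on the enzyme for most of its ATP, and its mitochondria are among the richest in respiratory complexes.

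Total counts per library lay between 5.83 M in DKO 1 and 17.2 M in TKO 3. Mrtfa, listed as Mkl1, spanned 1.33 to 2.66 CPM in TKO, 1.40 to 2.77 CPM in DKO and 4.81 to 11.3 CPM in Ctrl. Mrtfb, listed as Mkl2, spanned 27.5 to 42.5 CPM in TKO, 26.6 to 39.3 CPM in DKO and 44.8 to 55.9 CPM in Ctrl. Myocd RNA spanned 175 to 324 CPM in TKO, 120 to 187 CPM in MKO and 153 to 234 CPM in Ctrl, and the level of a gene cut by Cas9 does not by itself show how many alleles were edited. All 10 defining cardiomyocyte markers were above 0 in all 24 libraries. By sex-linked transcripts, males were 3 of 6 libraries in TKO, 1 in DKO, 4 in MKO and 4 in Ctrl.

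Library DKO 1 stood apart from the rest. It had the fewest counts and was the only male DKO library. Across the 12281 tested genes the log2 ratio of DKO 1 to the other DKO libraries was correlated with exon length at a Spearman rho of -0.573, against -0.295 to 0.469 for the other 23 libraries, each set against the rest of its group, which is a description across genes. The other DKO libraries were set against a mean that holds DKO 1, and outside DKO the values ran from -0.295 to 0.391. Genes under 750 bases had a median log2 ratio of 0.88 in DKO 1 and genes of 3000 bases or more one of -0.57. The Nduf genes are short: 34 of 41 were under 1500 bases, with a median of 739 bases against 2945 bases for all tested genes. Their median log2 ratio in DKO 1 was 1.11, 40 of 41 lay above 0, and 37 were higher in DKO 1 than in each of the other 23 libraries. That median lay above the 0.88 of all tested genes under 750 bases. Within the 41 genes the rho with length was -0.347. Among Nduf genes of 1500 to under 3000 bases, Ndufs4 had 1.227, Ndufa11 1.014, Ndufv1 0.901, Ndufv3 0.895 and Ndufs1 0.134. The median of all tested genes of that length was 0.181. How much of the rise goes with length was not tested. Counts of called genes and medians over the 41 genes are therefore given with and without DKO 1. So are the ratios of named Nduf genes that it moves. Medians of single roles and of other lists are given with all libraries only.

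**Figure D1:**
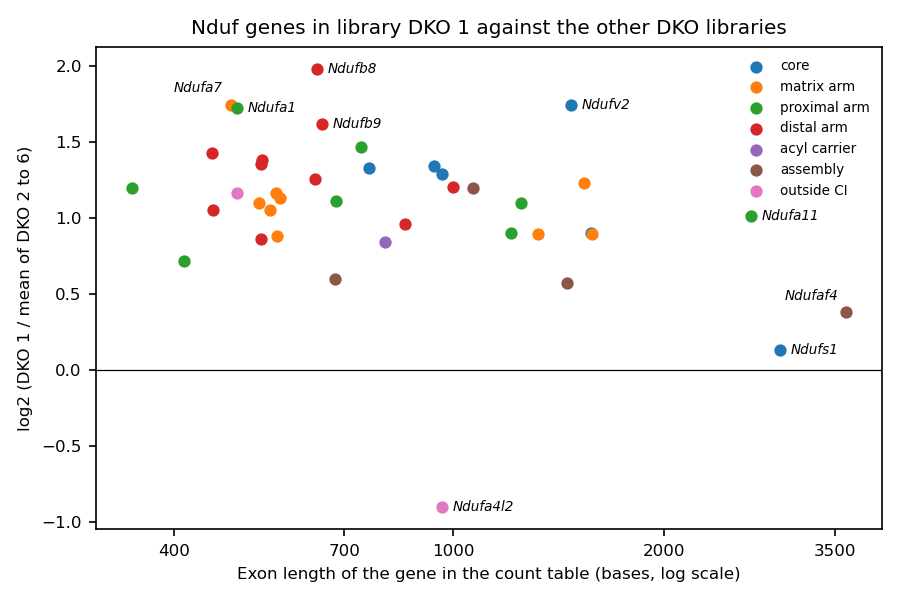
Log2 ratio of the level in library DKO 1 to the mean of the other 5 DKO libraries (vertical axis) against exon length in bases (horizontal axis, log scale), 1 point for each of 40 Nduf genes, coloured by role. All genes except Ndufa4l2 lie above 0, and the long genes Ndufs1 and Ndufaf4 lie lowest among them.

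Promoter windows, 250 bases before to 50 bases after the annotated start, were taken from RefSeq (GRCm38.p6, the build of the files) and were found for 36 of the 41 genes. They were searched on both strands for sites of factors known to drive nuclear genes of respiration: NRF1 and YY1, whose letters stand in capitals in the stretches printed here (the middle base of the NRF1 letters after GCGCA may be any), ETS factors (CCGGAAGT) and estrogen-related receptors (TCAAGGTCA), and for the CArG box bound by serum response factor. The NRF1 letters were found in 7 of 36 Nduf windows (19.4%) and in 5.19% of all 27025 genes, and the YY1 letters in 4 of 36 (11.1%) and in 0.995% of all genes. Only 1 of 36 windows (2.78%), that of Ndufs3, held the ETS letters, against 4.31% of all genes. Neither the receptor letters nor a CArG box occurred in any of the 36 windows, against 0.466% and 1.81% of all genes. All genes here are every gene with a window, not only the 12281 tested ones. A gene counted if any of its windows matched. Such matches are descriptions of letters, not sites shown to be bound, and a missing match says only that the letters are not in the window. The 4 YY1 matches are shown because all 4 lie between 24 and 44 bases after the start and on the strand of the gene, with the match in capitals and 10 bases on either side where the window holds them. The YY1 letters hold an ATG, and whether translation starts at these matches was not tested. The stretches lie at chr6:126849096-126849125, chr13:114388045-114388069 and chr13:73328433-73328459 on the minus strand and chr10:80249463-80249492 on the plus strand.
Ndufa9: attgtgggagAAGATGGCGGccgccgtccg
Ndufs4: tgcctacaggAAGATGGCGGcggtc
Ndufs6: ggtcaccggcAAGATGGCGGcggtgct
Ndufs7: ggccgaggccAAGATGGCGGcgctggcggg

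NRF1 matches were spread more widely, in the windows of Ndufa5, Ndufa6, Ndufa8, Ndufa11, Ndufaf4, Ndufb4 and Ndufs6. The windows of 2 assembly factors that were lower in TKO are shown whole, with any match to the searched letters in capitals. That of Ndufaf4 (chr4:24897833-24898132, plus strand) holds an NRF1 match from 113 to 104 bases before the start. That of Ndufaf1 (chr2:119662785-119663084, minus strand), the gene with the largest fall below, holds none of the searched letters.
Ndufaf4: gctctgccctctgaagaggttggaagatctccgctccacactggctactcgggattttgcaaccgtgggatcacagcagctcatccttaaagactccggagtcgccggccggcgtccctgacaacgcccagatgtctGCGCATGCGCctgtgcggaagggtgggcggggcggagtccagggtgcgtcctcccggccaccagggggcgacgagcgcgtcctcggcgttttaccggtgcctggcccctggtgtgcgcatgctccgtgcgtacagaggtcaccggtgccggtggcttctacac
Ndufaf1: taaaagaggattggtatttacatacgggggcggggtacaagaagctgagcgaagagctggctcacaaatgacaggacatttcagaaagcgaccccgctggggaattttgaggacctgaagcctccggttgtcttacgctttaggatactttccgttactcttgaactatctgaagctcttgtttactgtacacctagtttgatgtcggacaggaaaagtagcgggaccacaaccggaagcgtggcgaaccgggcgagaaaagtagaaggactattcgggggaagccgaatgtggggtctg

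In the Ctrl cardiomyocytes the subunit genes spanned a 20.4-fold range of level per length, in CPM per kilobase of exon. Their median was 434 CPM per kilobase, and 24 of 35 lay within 2-fold of it. Among the core subunits Ndufv1, which binds the flavin and NADH, was highest at 1180 ± 115 (SD, n = 6) and Ndufs3, of the quinone-binding module, lowest at 224 ± 20.6. Among accessory subunits of the matrix arm, Ndufa5 was highest at 850 ± 151 and Ndufs4, whose loss in mice is a model of Leigh syndrome, lowest at 145 ± 23.4. The proximal membrane arm ran between Ndufa10, a member of the nucleoside kinase family, at 876 ± 78.7 and Ndufa11 at 171 ± 31.5. The value for Ndufa11 rests on an exon length of 2661 bases, while its transcripts held 1103 words of 50 bases. A shorter length would raise its level, so its place as lowest is uncertain. In the distal arm Ndufb9, a small protein of the LYR family, was highest of all 35 subunits at 1224 ± 176 and Ndufb4 lowest of them at 60.1 ± 8.79.

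Assembly factors lay below nearly all subunits on this per-length scale. Ndufaf1, a factor of the intermediate that builds the membrane arm, reached 74.8 ± 9.79 CPM per kilobase and was the highest of the 4, and Ndufaf2, a late-acting relative of Ndufa12, was lowest at 27.6 ± 3.84. The acyl carrier Ndufab1 lay close above them at 85.5 ± 11.7. Of all 41 genes Ndufa4 was highest at 1549 ± 240 and Ndufa4l2 lowest at 2.02 ± 1.38. In the order of the 41 levels, 29 of 40 neighbouring pairs were closer than the larger of their SDs, so most neighbours do not differ beyond their spread. A share of the 50-base words of some genes also occurs in transcripts of other genes (39.7% for Ndufs3, 37.0% for Ndufb4, 31.6% for Ndufb6, 28.5% for Ndufa13, 26.2% for Ndufa12 and 23.4% for Ndufb9), so their levels are uncertain.

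**Figure D2:**
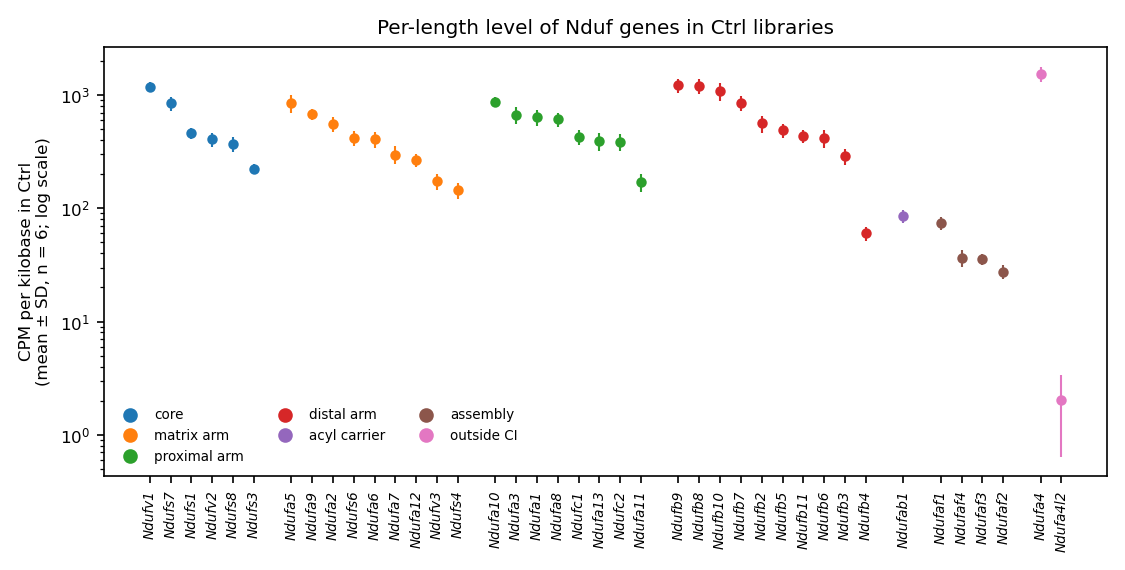
Level per length in the 6 Ctrl libraries (CPM per kilobase of exon, log scale) for 40 of the 41 Nduf genes, grouped and coloured by role, with points for the mean and bars for the SD. Most subunits lie within 2-fold of 434 CPM per kilobase, the assembly factors and Ndufab1 lie under 100, and Ndufa4l2 lies lowest.

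In TKO cardiomyocytes 7 of the 41 Nduf genes fell relative to Ctrl and 0 rose, at an adjusted p under 0.05 (edgeR). They included the core subunits Ndufv1 and Ndufs1, the accessory subunits Ndufa9 and Ndufa10 and the assembly factors Ndufaf1 and Ndufaf4, with falls between 0.33 and 0.72 on the log2 scale. Of the 12281 tested genes 5.98% were called lower and 8.14% higher. The median log2 ratio was -0.30 over the 41 genes and -0.01 over all tested genes, and 40 of the 41 ratios were below 0. In bulk RNA of sorted cells, fewer cells of a kind and less RNA per cell cannot be told apart. The summed level of the 10 cardiomyocyte markers was also lower, at 100900 to 124400 CPM in TKO and 131400 to 166600 CPM in Ctrl, while the sums of all fibroblast (250.9 to 324.2 against 116.0 to 663.5 CPM), endothelial (127.7 to 511.7 against 123.9 to 1329 CPM), mural (392.2 to 659.1 against 470.4 to 807.9 CPM) and leukocyte markers (7.93 to 13.1 against 4.48 to 11.5 CPM) and of 3 of 5 erythroid markers (0.250 to 0.697 against 0.0 to 2.96 CPM) overlapped between TKO and Ctrl. Their part in the result was not tested.

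The assembly factor Ndufaf1 fell the most. It had 56.9, 65.0 and 84.7 CPM (lowest, median, highest) in TKO, 74.9, 78.6 and 116 CPM in DKO, 79.7, 90.1 and 99.1 CPM in MKO and 93.6, 104 and 128 CPM in Ctrl. Every TKO library lay below every Ctrl library, and the DKO and MKO medians lay between the TKO and Ctrl medians. The TKO to Ctrl log2 ratio was -0.72 ± 0.11 (SE, adjusted p = 7.95e-05), so that the level fell by 39.1%. Ndufaf4, which acts with Ndufaf3 on the early quinone-binding module, had 86.6, 103 and 123 CPM in TKO and 115, 123 and 175 CPM in Ctrl. These ranges overlapped, and the log2 ratio was -0.33 ± 0.11 (adjusted p = 0.0461). The call for Ndufaf4 was lost in 20 of 33 alternative analyses. Ndufaf2 and Ndufaf3, the remaining 2 factors, had log2 ratios of -0.34 ± 0.14 (adjusted p = 0.129) and -0.24 ± 0.17 (adjusted p = 0.387).

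Among the 7 core subunits all log2 ratios were below 0, with a median of -0.43, and 3 were called. Ndufv1 had 1142, 1267 and 1459 CPM in TKO, 1412, 1638 and 2967 CPM in DKO, 1525, 1699 and 1957 CPM in MKO and 1575, 1865 and 2113 CPM in Ctrl. All 6 TKO libraries were below all Ctrl and all MKO libraries. The ratio of TKO to Ctrl was -0.53 ± 0.13 on the log2 scale (adjusted p = 0.00813). Ndufs1, the largest iron-sulfur subunit, had 857, 1013 and 1130 CPM in TKO and 1104, 1368 and 1499 CPM in Ctrl. Its TKO and Ctrl ranges overlapped at their ends, and the log2 ratio was -0.43 ± 0.10 (adjusted p = 0.00337). Its exons share 248 bases with Gm11602 on the other strand, whose reads cannot be told apart without strand.

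Ndufs7, which carries the last iron-sulfur cluster before the quinone, had 377, 427 and 529 CPM in TKO and 557, 612 and 789 CPM in Ctrl. Its groups did not overlap, but the log2 ratio of -0.54 ± 0.18 missed the threshold (adjusted p = 0.0524). Ndufv2, which holds an iron-sulfur cluster beside Ndufv1, had 376, 477 and 506 CPM in TKO and 525, 562 and 732 CPM in Ctrl, with no overlap, a log2 ratio of -0.38 ± 0.23 and an adjusted p of 0.304. The core subunits summed to 4210, 4711 and 5246 CPM in TKO and to 5481, 6386.5 and 7469 CPM in Ctrl, with every TKO library below every Ctrl library.

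**Figure D3:**
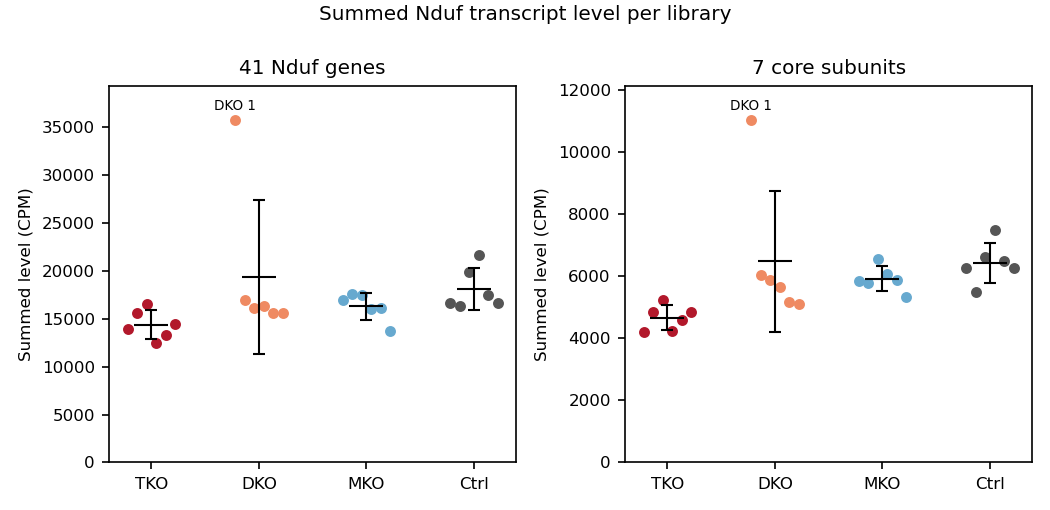
Summed level in CPM of the 41 Nduf genes and of the 7 core subunits, 1 point per library for TKO, DKO, MKO and Ctrl, with the mean and SD of 6 libraries. DKO 1 lies far above the rest at 35760 and 11020 CPM, and the 6 TKO core sums lie below the 6 Ctrl core sums.

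Of the accessory subunits, 1 of 9 in the matrix arm and 1 of 8 in the proximal arm were called. Ndufa10 of the proximal arm had 619, 716 and 857 CPM in TKO, 737, 971 and 1694 CPM in DKO, 799, 938 and 1049 CPM in MKO and 908, 1057 and 1173 CPM in Ctrl. TKO and Ctrl did not overlap, and the log2 ratio was -0.53 ± 0.14 (adjusted p = 0.0127). Ndufa9, a matrix-arm subunit that binds NADPH near the quinone site and whose YY1 match is printed above, had 596, 673 and 751 CPM in TKO and 788, 877 and 1093 CPM in Ctrl. The groups again did not overlap, with a log2 ratio of -0.42 ± 0.13 (adjusted p = 0.0344). The median log2 ratio was -0.27 over the 9 accessory subunits of the matrix arm, -0.19 over the 8 of the proximal arm and -0.24 over the 10 of the distal arm, of which 0 were called. The only ratio above 0 among the 41 was that of Ndufa11, at 0.01 ± 0.16 (adjusted p = 0.97).

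Counting separation alone, 7 of the 41 genes had all TKO libraries below all Ctrl libraries, against 3.4% of tested genes, and 0 had all above, against 4.76%. They included Ndufaf1, Ndufv1, Ndufv2, Ndufs7, Ndufa9 and Ndufa10.

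**Figure D4:**
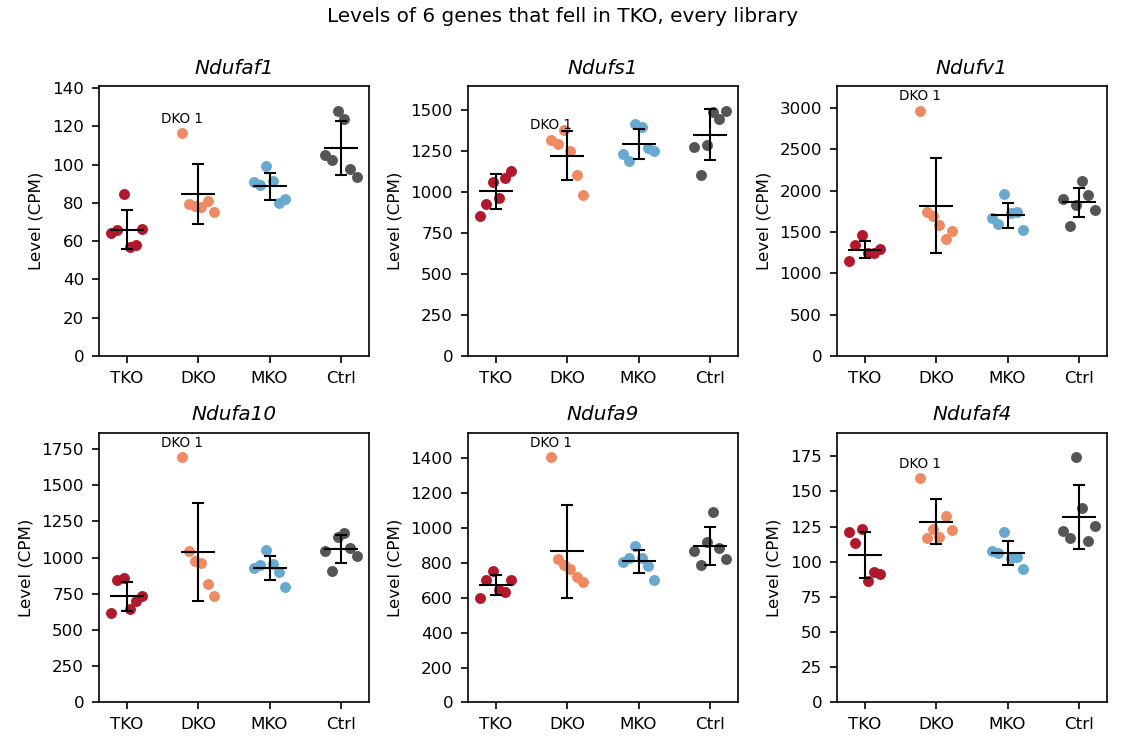
Level in CPM of 6 Nduf genes that fell in TKO against Ctrl, 1 panel per gene, with 1 point per library for TKO, DKO, MKO and Ctrl and the mean with SD of 6 libraries. TKO lies below Ctrl without overlap for Ndufaf1, Ndufv1, Ndufa10 and Ndufa9, and DKO 1 is the highest DKO library in all panels but that of Ndufs1.

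Which genes were called went with exon length as well as with the size of the ratio. The called genes had a median length of 1572 bases and the others one of 641 bases. Over 40 genes, Ndufa4l2 left out, standard errors were correlated with length at a Spearman rho of -0.458. The log2 ratios themselves were correlated with length at -0.344, so length and ratio were not separate. Both values are descriptions across genes that share libraries. Standard errors of TKO to Ctrl ranged from 0.096 to 0.262 with DKO 1 in the fit and from 0.074 to 0.133 without it. In the length class under 1500 bases the median log2 ratio was -0.29 for the 34 Nduf genes and -0.02 for all 1988 tested genes.

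Without DKO 1, which belongs to neither group but enters the shared estimate of spread, the TKO to Ctrl ratios hardly moved (median -0.30) and 21 of the 41 genes were called lower and 0 higher, against 10.9% and 11.8% of tested genes. The 21 held all 7 genes called with DKO 1 in the fit and all 7 core subunits. The largest falls among the added genes were those of Ndufs7, by 0.54 ± 0.10 (adjusted p = 0.000228), and Ndufa6, by 0.51 ± 0.11 (adjusted p = 0.00199). The others were Ndufs3, Ndufs8, Ndufv2, Ndufa3, Ndufa5, Ndufa8, Ndufa12, Ndufab1, Ndufb5, Ndufb7, Ndufb10 and Ndufb11. With Ctrl 3 left out too, 14 were lower and 0 higher, against 10.3% of tested genes lower. Without Ctrl 4 or without TKO 4 the count was 4, with 604 of 12377 and 554 of 12364 tested genes lower. In the authors' deposited table for this comparison, 10 of the 41 genes were lower and 0 higher at an adjusted p under 0.05, and 15.8% of its genes passed in either direction. The authors' tables rest on other sets of libraries: of the 5866 genes with a base mean of 0 in this table, 54 have counts in Ctrl 3 and 0 have counts in any other TKO or Ctrl library, so Ctrl 3 was not among its libraries. By the same count, Ctrl 3 was not used in the authors' deposited tables against Ctrl and DKO 1 was not used in those with DKO.

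**Figure D5:**
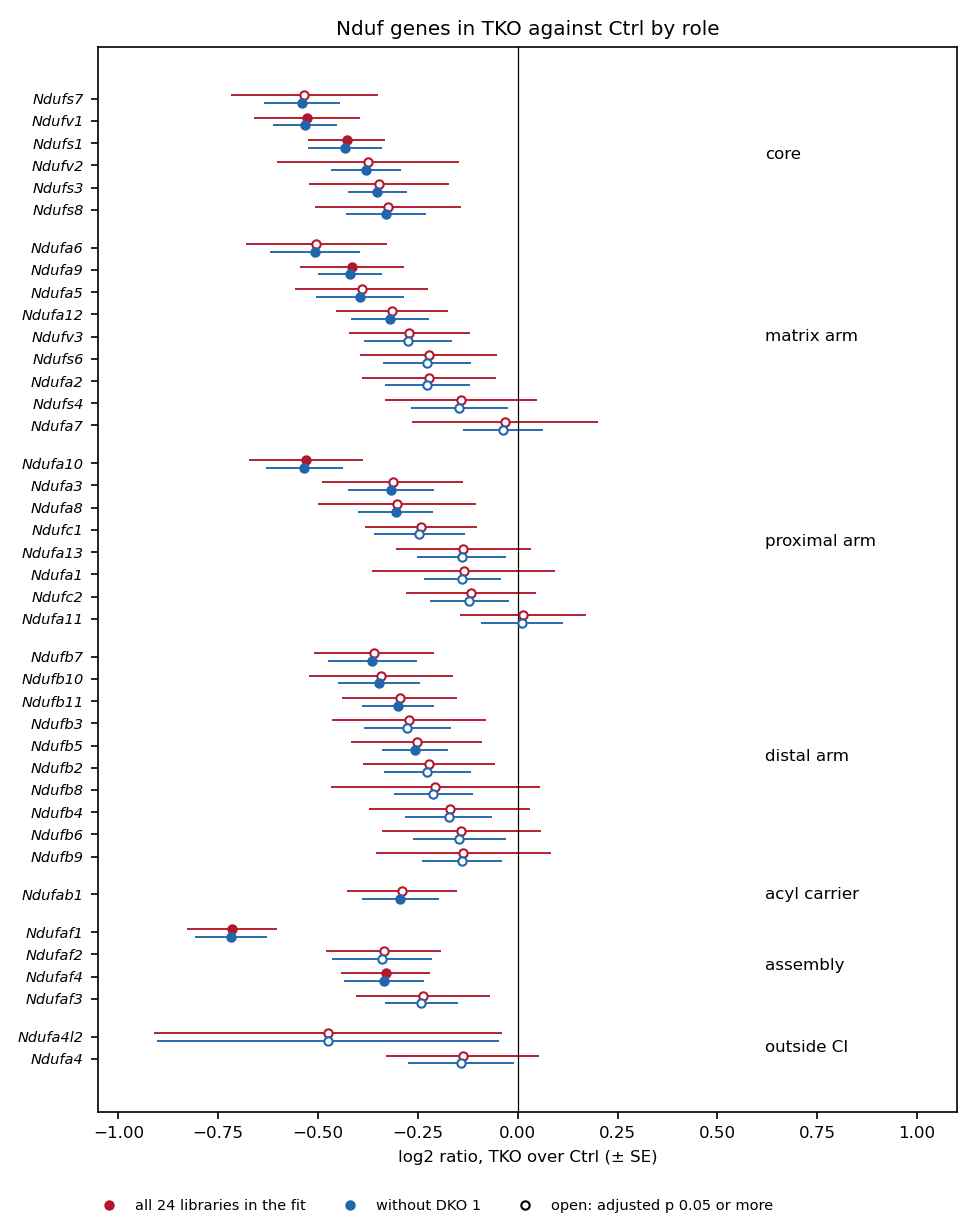
Log2 ratio of TKO to Ctrl for 40 of the 41 Nduf genes by role, with bars of 1 SE, from the fit of 24 libraries (red) and from the fit without DKO 1 (blue), filled where the adjusted p was under 0.05. The ratios of both fits lie close together, all but that of Ndufa11 below 0, while the bars are shorter without DKO 1.

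Of the genes with a promoter window, 4 of the 19 called without DKO 1 and 3 of the 17 others held the NRF1 letters, and 2 and 2 the YY1 letters.

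Between DKO and Ctrl the Nduf genes showed no called difference, and the sign of most ratios depended on DKO 1. With all libraries 0 of 41 genes were called (0.635% of tested genes in either direction), 1 had an unadjusted p under 0.05, and the median log2 ratio was 0.12, with 31 of 41 above 0. DESeq2 also called 0, and voom with quality weights called 1, with 197 of 12281 tested genes lower. Without DKO 1 the median was -0.16, 39 of 41 ratios were below 0, 10 genes had an unadjusted p under 0.05 and 1 gene, Ndufaf1, was called lower (0.655% of tested genes, and 0.348% higher). Without Ctrl 3 as well, 1 gene was lower, against 0.486% of tested genes. Ndufaf1 had a log2 ratio of -0.36 ± 0.11 with all libraries (adjusted p = 0.194) and fell by 0.48 ± 0.09 without DKO 1 (adjusted p = 0.00768), with no overlap between the 5 DKO and the 6 Ctrl libraries, against 1.33% of tested genes. The summed cardiomyocyte markers were likewise lower in every DKO library, at 103400 to 130700 CPM, than in every Ctrl library, at 131400 to 166600 CPM, and their part in the ratio of Ndufaf1 was not tested. Ndufb8, a distal-arm subunit, had 660, 696 and 2740 CPM in DKO and 693, 715 and 983 CPM in Ctrl. Its highest value was DKO 1, and its log2 ratio was 0.41 ± 0.26 with all libraries (adjusted p = 0.618) and -0.17 without DKO 1. Ndufa13, a subunit also known as Grim19, had a log2 ratio of 0.28 ± 0.17 (adjusted p = 0.595), and one of 0.02 ± 0.12 without DKO 1 (adjusted p = 0.973). Of the 41 genes, 1 was lower in the authors' deposited table, which uses neither DKO 1 nor Ctrl 3, and 0 higher, and 1.8% of its genes passed. The median log2 ratio of the 41 genes was -0.125 in the authors' deposited table.

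The summed level of the 41 genes was 15570, 16230 and 35760 CPM in DKO and 16380, 17100 and 21690 CPM in Ctrl. The highest value was DKO 1, and the next DKO library reached 17000 CPM. For comparison, the sums were 12530, 14215 and 16570 CPM in TKO and 13780, 16545 and 17560 CPM in MKO.

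In MKO cardiomyocytes 0 of the 41 Nduf genes and 0.0% of tested genes were called against Ctrl. At an unadjusted p under 0.05 there were 3 Nduf genes and 762 genes in all, and DESeq2 and voom called 0 Nduf genes. The median log2 ratio over the 41 genes was -0.16 and 40 were below 0. Median summed markers in MKO and Ctrl were 132400 and 154800 CPM for cardiomyocytes, 552 and 320 CPM for fibroblasts and 681 and 420 CPM for endothelial cells. The ranges of every marker sum overlapped between MKO and Ctrl, and their part in the ratios was not tested. Ndufaf4 had 95.1, 105 and 122 CPM in MKO and a log2 ratio of -0.31 ± 0.11 to Ctrl (adjusted p = 0.717). Ndufaf1 had one of -0.29 ± 0.11 (adjusted p = 0.717). The 1 ratio above 0 was that of Ndufa4l2, 1.02 ± 0.41 (adjusted p = 0.72). Without DKO 1 in the fit, 0 Nduf genes and 0.0% of tested genes were again called, the median was -0.17, and 13 Nduf genes and 1478 genes in all had an unadjusted p under 0.05. The smallest adjusted p was then that of Ndufaf1, 0.289, at a log2 ratio of -0.30 ± 0.09.

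Set against DKO, 3 Nduf genes were lower in TKO and 0 higher, against 2.22% and 4.16% of tested genes. Among them, Ndufv1 fell by 0.50 ± 0.13 (adjusted p = 0.0237) and Ndufa10 by 0.50 ± 0.14 (adjusted p = 0.0341), with a ratio of -0.30 ± 0.10 without DKO 1 (adjusted p = 0.0595). Without DKO 1 only Ndufv1 was called, at -0.30 ± 0.08 (adjusted p = 0.0265), against 2.85% of tested genes lower and 6.05% higher, and the median over the 41 genes was -0.14 in place of -0.39. The count was 0 without TKO 1, without TKO 4 and with only these 2 groups in the fit, 1 without DKO 2, TKO 5 or TKO 6, 5 without DKO 6 and 1 without both Ctrl 3 and DKO 1 (3.53% of tested genes). In the fits with 0, 176 of 12324, 128 of 12364 and 53 of 11969 tested genes were lower. Without DKO 2, TKO 5 or TKO 6, 183 of 12327, 188 of 12366 and 168 of 12329 were lower, and without DKO 6 258 of 12309. Ndufv2 alone had all TKO libraries below all DKO libraries, with 376 to 506 CPM in TKO and 512 to 1771 CPM in DKO, against 0.977% of tested genes. The authors' deposited table, without DKO 1, has 2 of the 41 genes lower and 0 higher, with 11.5% of its genes passing.

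Set against MKO, 4 Nduf genes were lower in TKO and 0 higher, against 6.86% and 6.48% of tested genes. Ndufaf1 fell by 0.43 ± 0.11 (adjusted p = 0.0134), Ndufs1 by 0.36 ± 0.10 (adjusted p = 0.0139) and Ndufv1 by 0.40 ± 0.13 (adjusted p = 0.0446). The call for Ndufv1 was lost in 22 of 33 alternative analyses. It held without DKO 1, at a log2 ratio of -0.39 ± 0.08 (adjusted p = 0.00127). The median over the 41 genes was -0.13, and -0.12 without DKO 1. Ndufa4l2 was the fourth, with 0.584, 1.55 and 2.28 CPM in TKO, 1.20, 2.28 and 3.99 CPM in DKO, 1.92, 3.31 and 6.61 CPM in MKO and 0.249, 1.80 and 4.26 CPM in Ctrl. In 5 of 6 TKO libraries the level lay below the MKO range, and the log2 ratio was -1.50 ± 0.41 (adjusted p = 0.0179). It rests on 2 to 71 counts per library, and 34 exon bases are shared with Shmt2 on the other strand. Summed fibroblast and endothelial markers were lower in TKO than in MKO as well, without overlap. They spanned 250.9 to 324.2 against 366.1 to 1108 CPM for fibroblasts and 127.7 to 511.7 against 516.3 to 1108 CPM for endothelial cells. Medians were also lower for mural cells (435 against 739 CPM) and cardiomyocytes (109100 against 132400 CPM), with overlapping ranges. The ranges of leukocyte sums (7.927 to 13.12 against 6.002 to 24.14 CPM) and erythroid sums (0.2501 to 0.6969 against 0.1004 to 1.662 CPM) overlapped too. The part of all these markers in the ratio of Ndufa4l2 was not tested. Without MKO 6 the count of called Nduf genes was 2, with 552 of 12362 tested genes lower. Without DKO 1 the count was 8 lower and 0 higher, against 10.7% and 11.4% of tested genes. In 3 genes, Ndufs1 and Ndufv1 among them, all TKO libraries lay below all MKO libraries, against 5.06% of tested genes. The authors' deposited table has 9 of the 41 genes lower and 0 higher, with 20.8% of its genes passing.

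DKO and MKO did not differ in any Nduf gene at the threshold (0 of 41, and 0.79% of tested genes), with 8 genes at an unadjusted p under 0.05 with DKO 1 and 0 without it, and 0 called by DESeq2 or voom. The median log2 ratio was 0.25 with all libraries and 0.00 without DKO 1, where 0 of 41 were called as well (1.04% of tested genes). The smallest p values belonged to Ndufs4 at 0.50 ± 0.19 (adjusted p = 0.24), Ndufaf4 at 0.28 ± 0.11 (adjusted p = 0.254) and Ndufb9 at 0.54 ± 0.22 (adjusted p = 0.257). Without DKO 1 these log2 ratios were 0.21 ± 0.13 for Ndufs4, 0.21 ± 0.10 for Ndufaf4 and 0.12 ± 0.10 for Ndufb9, with adjusted p values of 0.523, 0.4095 and 0.669.

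Whether the effect of the Myocd guide virus differed between the Mrtf-mutant and the Rosa-Cas9 genotype was asked by the interaction, the TKO to DKO log2 ratio minus the MKO to Ctrl log2 ratio. It was called for 0 of 41 Nduf genes (0.464% of tested genes), 1 had an unadjusted p under 0.05, and DESeq2 and voom called 0. The median was -0.24 with all libraries and 0.04 without DKO 1, where 0 of 41 were called again (1.63% of tested genes). Without Ctrl 2 the count was 1, Ndufa4l2, while 585 of 12351 tested genes were called, 474 of them lower. Ndufa4l2 had the smallest p, at -1.85 ± 0.59 (adjusted p = 0.177), followed by Ndufv1 at -0.37 ± 0.19 (adjusted p = 0.421) and Ndufa3, a small proximal-arm subunit, at -0.44 ± 0.25 (adjusted p = 0.487). Without DKO 1 these ratios were -1.94 ± 0.59 for Ndufa4l2 (adjusted p = 0.0836), -0.16 ± 0.12 for Ndufv1 (adjusted p = 0.5) and -0.14 ± 0.16 for Ndufa3 (adjusted p = 0.691). The 3 comparisons with Ctrl share the Ctrl libraries, so their ratios are not independent of each other.

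The 41 genes lie on 16 chromosomes. Ndufa6 (chromosome 15, 82350139 to 82354291, mm10), a LYR protein that binds the acyl carrier, lies 1.16 Mb from Mrtfa, whose mutant allele the TKO and DKO mice carry. It had 127, 152 and 210 CPM in TKO, 172, 189 and 415 CPM in DKO, 169, 209 and 214 CPM in MKO and 187, 221 and 284 CPM in Ctrl. The TKO and Ctrl ranges overlapped, and the log2 ratio was -0.50 ± 0.18 (adjusted p = 0.0577), a fall by 0.51 ± 0.11 without DKO 1 (adjusted p = 0.00199). Ndufa13 (chromosome 8, 69894182 to 69902558) had 379, 420 and 538 CPM in TKO, 462, 495 and 1065 CPM in DKO, 363, 470 and 535 CPM in MKO and 397, 465 and 636 CPM in Ctrl. All these ranges overlapped, with a TKO to Ctrl log2 ratio of -0.14 ± 0.17 (adjusted p = 0.657), and 344 exon bases are shared with Tssk6 on the other strand.

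Ndufa4, the complex IV subunit, had 569, 730 and 775 CPM in TKO and 648, 731 and 925 CPM in Ctrl. The ranges overlapped and the log2 ratio was -0.14 ± 0.19 (adjusted p = 0.693). Ndufa4l2 had a log2 ratio of -0.47 ± 0.44 between TKO and Ctrl (adjusted p = 0.527), with overlapping ranges.

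Further assembly factors do not carry the Nduf name. Of 10 such genes, 4 were lower and 0 higher in TKO against Ctrl, with a median log2 ratio of -0.27. The shares of all tested genes were 5.98% lower and 8.14% higher. Aifm1, which anchors an import factor needed for complex I, fell by 0.57 ± 0.09 (adjusted p = 6.38e-05), Foxred1, an assembly oxidoreductase, by 0.47 ± 0.08 (adjusted p = 0.000226) and Acad9, the partner of Ndufaf1 in the same assembly complex, by 0.30 ± 0.07 (adjusted p = 0.00574). Against MKO 3 of the 10 fell, where 6.86% of tested genes were lower. Again these were Aifm1 by 0.43 ± 0.09 (adjusted p = 0.00171), Foxred1 by 0.31 ± 0.08 (adjusted p = 0.0116) and Acad9 by 0.26 ± 0.07 (adjusted p = 0.0197). Against DKO 2 of them fell, where 2.22% of tested genes were lower. These were Foxred1 by 0.33 ± 0.08 (adjusted p = 0.0129) and Aifm1 by 0.35 ± 0.09 (adjusted p = 0.0174). Without DKO 1 their log2 ratios were -0.25 ± 0.06 (adjusted p = 0.0169) and -0.32 ± 0.09 (adjusted p = 0.0256).

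The genes of complexes II to V gave a median log2 ratio of -0.25 in TKO against Ctrl, close to the -0.30 of the Nduf genes. Of the 42 genes 7 were lower and 2 higher, against 5.98% and 8.14% of tested genes. By complex, 3 of 4 genes of complex II were lower (median -0.44), 3 of 9 of complex III (median -0.22), 0 of 13 of complex IV (median -0.17) and 1 of 16 of complex V (median -0.25). Sdha, the flavoprotein of complex II, fell by 0.54 ± 0.10 (adjusted p = 0.000375). The 2 genes that rose are both of complex IV and encode the widely expressed forms of subunits that have a second, muscle form: Cox8a by 0.72 ± 0.12 (adjusted p = 0.000126) and Cox6a1 by 0.66 ± 0.17 (adjusted p = 0.0081). Without DKO 1, 17 of the 42 were lower and 2 higher, and of the 10 other assembly factors 5 were lower. The shares of tested genes then were 10.9% lower and 11.8% higher. No difference between the Nduf genes and these 42 was tested.

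Proteins of the mitochondrial ribosome, which translates the membrane-arm core subunits, showed 17 of 76 genes lower and 0 higher in TKO (median -0.26), and 38 lower without DKO 1. Of tested genes 5.98% were lower and 8.14% higher with DKO 1 in the fit, and 10.9% were lower without it. The smallest adjusted p was that of Mrps27, which fell by 0.73 ± 0.10 (adjusted p = 2.01e-05). Of 15 regulators of respiratory genes 2 were lower and 0 higher (median -0.13), and 3 lower without DKO 1, against the same shares of tested genes. The coactivator Ppargc1b, which drives genes of mitochondria, fell by 0.85 ± 0.12 (adjusted p = 2.79e-05) and Tfam, the packaging and transcription factor of mitochondrial DNA, by 0.34 ± 0.11 (adjusted p = 0.0295). In DKO and in MKO against Ctrl, 0 genes of complexes II to V and of the 10 other assembly factors were called. The same held for the mitochondrial ribosome and the regulators, while 0.635% of tested genes were called in DKO and 0.0% in MKO. Without DKO 1 only 1 gene of these lists, of the mitochondrial ribosome, was lower in DKO, against 0.655% of tested genes.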

How the data were processed

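SMART-Seq libraries of polyadenylated RNA were made into dual-indexed Nextera XT libraries, per the labels' protocols, and neither kit marks the strand. The authors deposited raw read counts for each gene. The submitters' processing notes name STAR, featureCounts, DESeq2 and mm10, without versions, and the sources used here do not give the handling of reads with several matches. The authors also deposited comparison tables with log2 fold changes, p-values and adjusted p-values, per the file headers.

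Counts were tested with edgeR 4.0.16 (R 4.3.3) by the two-sided quasi-likelihood test with TMM scaling, all 24 libraries in 1 fit with 1 coefficient per group, after filterByExpr with a minimum count of 10. Benjamini-Hochberg adjustment ran over all 12281 tested genes, and genes were called at an adjusted p under 0.05. Levels are CPM of the effective library size. Alternatives used DESeq2 1.42.0 and voom of limma 3.58.1, other filters and scalings, a term for sex, a replicate block and fits without libraries. Tests were checked on simulated counts. Over 60 pairs of libraries within groups the chi-square per gene lay between 6.83 and 112.17, so none was a repeat. No p-value was computed over a list. Named genes are all called in TKO against Ctrl, in other comparisons up to 6 called genes or the 3 with the smallest p, the highest and lowest Ctrl level in each role, and those within 10 Mb of Mrtfa or Mrtfb or between 68 and 76 Mb of chromosome 8, and Ndufa4 and Ndufa4l2. Other lists are given by counts with up to 3 called genes named. The members, roles and lists were chosen with earlier results of these data known. The values of 1 member are not reported here, and it stays in all counts, medians and sums. Of 13 other assembly factors 10 were found in the table.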

Additional observations from a re-analysis of the deposited data

Results flagged for a closer look

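In the groups of 6 libraries the highest or lowest value was set against the nearest other value by Dixon's test at its 95% critical value, which chance passes in about 1 of 20 groups. Of 64 sets tested, 15 passed, 14 of them through DKO 1 as the highest DKO library. The summed level of the 41 Nduf genes was 35760 CPM in DKO 1 and that of the 7 core subunits 11020 CPM. Among single genes DKO 1 had 2967 CPM of Ndufv1, 1694 of Ndufa10, 1407 of Ndufa9, 116.4 of Ndufaf1 and 159.6 of Ndufaf4. It had 1065 CPM of Ndufa13, 2740 of Ndufb8, 488.8 of Ndufs4, 2275 of Ndufb9, 506.1 of Ndufa3, 414.7 of Ndufa6 and 1588 of Ndufa4. Over all 41 genes and 4 groups, 44 of 164 sets passed, 39 through DKO 1. The other set named was Ndufaf1 in TKO 3, at 84.74 CPM the highest of the TKO libraries.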

How the results depend on the processing

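With another scaling, a filter of 10 counts in 6 libraries or none, DESeq2, voom, a sex term or fewer libraries, 0 Nduf genes were called higher in any comparison. Counts of called Nduf genes in TKO against Ctrl were 7 in the main analysis, 14 with voom, 11 with only the 2 groups, 14 without Ctrl 3 and DKO 1, and 4 to 21 when 1 library was left out (4 without Ctrl 4 or TKO 4, 21 without DKO 1). Calls over all tested genes moved too. Those lower were 734 of 12281, 1219 of 12281 with voom and 903 of 11778 with only the 2 groups. They were 1269 of 12356 without Ctrl 3 and DKO 1, 604 of 12377 without Ctrl 4, 554 of 12364 without TKO 4 and 1351 of 12366 without DKO 1. DKO against Ctrl gave 1 with voom (197 of 12281 tested genes lower) and without Ctrl 3 and DKO 1 (60 of 12356), and 0 to 1 with 1 library left out (81 of 12366 without DKO 1). TKO against DKO gave 3, and 1 with no filter, 7 with DESeq2, 5 with voom, 0 with only the 2 groups, 6 with a sex term, 1 without Ctrl 3 and DKO 1 and 0 to 5 with 1 library left out (0 without TKO 1 or TKO 4, 5 without DKO 6). Of 12281 tested genes, 273 were lower in the main analysis, 463 with DESeq2, 704 with voom and 480 with a sex term. With no filter 171 of 18307 were lower, with only the 2 groups 53 of 11969, and without Ctrl 3 and DKO 1 436 of 12356. Those lower were 176 of 12324 without TKO 1, 128 of 12364 without TKO 4 and 258 of 12309 without DKO 6. TKO against MKO gave 4, and 9 with voom, with only the 2 groups and without Ctrl 3 and DKO 1, and 2 to 8 with 1 library left out. Over all tested genes, those lower were 843 of 12281, 1697 of 12281 with voom and 1404 of 11945 with only the 2 groups. They were 1405 of 12356 without Ctrl 3 and DKO 1, 552 of 12362 without MKO 6 and 1319 of 12366 without DKO 1. The interaction gave 0 to 1, the 1 without Ctrl 2. Ndufaf1, Ndufs1, Ndufv1 and Ndufa10 were called in TKO against Ctrl in all 33 alternatives, Ndufa9 lost its call in 8 and Ndufaf4 in 20, and in TKO against MKO Ndufv1 lost its call in 22. Ratios of DKO to Ctrl were above 0 for 31 of 41 genes in the main analysis and below 0 for 39 without DKO 1, 39 without Ctrl 3 and DKO 1 and 38 with voom. Among the named genes the sign changed for Ndufb8 (-0.10 with voom, -0.15 without Ctrl 3 and DKO 1, -0.17 to 0.51 with 1 library left out) and Ndufa6 (0.017 with a sex term, -0.316 to 0.029 with 1 library left out), neither called. The cause was not tested. Libraries of equal replicate number had correlations from -0.218 to 0.642 across groups, over 0.1 in 14 of 36 pairs. Pairs of unequal number were not computed, so these values cannot decide whether equal numbers pair the libraries. With the number as a replicate block the counts were 9 in TKO against Ctrl, 3 against DKO, 4 against MKO and 0 elsewhere. Of 12281 tested genes, 764, 341 and 1016 were then called lower in these 3 comparisons.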
